A study of Mus musculus with 6 samples.

Results

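C3, C4b, Cfb, Serping1, Serpina3n, Saa3, Hp and Lcn2 are complement and acute-phase genes, and they were chosen by name, 8 of the 27179 genes in the bulk count table and of the 30750 genes in the single-cell tables. The data came from mouse (C57BL/6) immature cardiomyocytes (imCMs) of the neonatal heart, grown together with cardiac fibroblasts from neonatal hearts (NF) or from adult hearts (AF). The fibroblasts had been passaged in culture before use, relatively more AFs than NFs were plated per imCM, and all co-cultures were kept in serum-containing medium. No gene was altered in any group. Bulk RNA-seq covered imCMs recovered from co-culture with NFs (imCM-NF, 2 libraries) and with AFs (imCM-AF, 2 libraries). Single-cell RNA-seq on the ICELL8 platform, which counts unique molecular identifiers (UMIs) in single-cell wells, covered 1 cardiomyocytes chip and 1 fibroblasts chip. The wells of the cardiomyocytes chip carry the names AFNCM, NFNCM and NCM0, and those of the fibroblasts chip AF, NF, AF0 and NF0, each followed by a number, which makes 16 well types. The labels say that centrifugation parted cardiomyocytes from other cells, while the study's methods describe a flow-cytometry sort of cells labelled with a dye for each kind. What the 0 and the numbers stand for is not given in the sources used here. The labels do not say whether the libraries of a group came from separate cultures, so p-values measure the spread between these libraries, which may be technical.

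The bulk libraries held 9278909 to 12088577 counted reads. In the single-cell data 2254 of 2462 wells were kept, with a median of 22677.5 UMIs. The 11 cardiomyocyte markers summed to between 33173 and 46523 counts scaled to library size (CPM) in the 4 bulk libraries and to between 34233 and 47346 CPM in the well types of the cardiomyocytes chip. The 12 fibroblast markers summed to 21406 and 23711 CPM in imCM-NF and to 15873 and 12758 CPM in imCM-AF, and 6 of them fell while none rose. The 10 endothelial markers summed to 1476 and 1579 CPM in imCM-NF and to 1143 and 1039 CPM in imCM-AF, and 4 of them fell while none rose. In the AF0 wells 177 of 182 cells (97.3%, exact binomial 95% interval 93.7 to 99.1) fell into a mesothelial-like cluster, and the mesothelial markers summed to 396 and 349 CPM there, against 12.1 to 88.5 CPM in the other types. That name passed the naming rule narrowly (mean relative marker level 0.648, against 0.426 for fibroblast markers). The AF0 values are therefore those of wells labelled as fibroblasts whose cells also carried mesothelial markers.

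Complement is a cascade of plasma proteins that tags microbes and damaged cells and recruits immune cells. C3 is its central component, C4b belongs to the classical and lectin routes, Cfb (complement factor B) to the alternative route, and Serping1 (C1 inhibitor) restrains the first enzymes of the classical and lectin routes. Acute-phase proteins are secreted in inflammation, chiefly by the liver and also by activated stromal cells. Serpina3n inhibits serine proteases, Saa3 is a serum amyloid A, Hp (haptoglobin) binds free haemoglobin, and Lcn2 (lipocalin 2) binds iron-carrying siderophores. Cytokines such as interleukin 6 and interleukin 1 induce many of these genes through the transcription factors STAT3, C/EBP and NF-kB, and interferons induce several complement genes.

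Promoter sequences are shown for the 4 of the 8 members that had one in the RefSeq table used here (GRCm38.p6). Each line gives the 250 bases before an annotated start site of the gene, 5′ to 3′ on its strand, and capitals mark motif matches.
C3: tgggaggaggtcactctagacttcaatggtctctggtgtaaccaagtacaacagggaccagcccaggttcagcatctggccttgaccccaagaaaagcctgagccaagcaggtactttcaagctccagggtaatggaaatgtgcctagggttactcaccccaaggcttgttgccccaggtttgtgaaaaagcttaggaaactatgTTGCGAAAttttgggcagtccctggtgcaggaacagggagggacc
Saa3: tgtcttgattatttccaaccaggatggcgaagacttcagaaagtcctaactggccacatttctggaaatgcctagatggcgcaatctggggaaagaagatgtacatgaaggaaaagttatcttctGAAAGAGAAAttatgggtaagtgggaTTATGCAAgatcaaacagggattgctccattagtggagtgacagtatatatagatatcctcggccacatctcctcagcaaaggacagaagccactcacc
Lcn2: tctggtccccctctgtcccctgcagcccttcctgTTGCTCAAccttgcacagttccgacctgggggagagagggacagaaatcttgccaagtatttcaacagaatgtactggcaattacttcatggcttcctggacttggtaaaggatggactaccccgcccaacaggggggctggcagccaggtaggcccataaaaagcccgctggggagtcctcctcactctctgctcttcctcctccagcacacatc
Serpina3n: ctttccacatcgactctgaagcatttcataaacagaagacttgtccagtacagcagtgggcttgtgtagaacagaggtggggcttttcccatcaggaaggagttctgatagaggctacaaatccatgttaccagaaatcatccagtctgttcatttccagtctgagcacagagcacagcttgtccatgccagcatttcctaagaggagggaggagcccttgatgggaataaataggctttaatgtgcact
The C3 window is chr17:57228137-57228386 on the minus strand, the Saa3 window chr7:46715677-46715926 on the minus strand, the Lcn2 window chr2:32387740-32387989 on the minus strand and the Serpina3n window chr12:104406458-104406707 on the plus strand. Both strands were searched for the C/EBP motif TTGCNNAA, the interferon-stimulated response element (GAAA, any 2 bases, GAAA), the GAS element TTCNNNGAA and the NF-kB motif. C3 held a C/EBP match at -45 to -38 from the start, Lcn2 one at -216 to -209, and Saa3 one at -99 to -92 together with a response element match at -125 to -116. Serpina3n held none of the searched letters. These positions run from the start site used for each window. The Saa3 window lies inside the span annotated for its gene (46711998 to 46719615). The Serpina3n window reaches past the first base annotated for its gene (104406646). Of 32851 promoters of the same length, 9.56% held the C/EBP letters, 2.98% the response element, 7.02% the GAS element and 3.90% the NF-kB motif. Whether such matches play a part in the levels of these genes was not tested.

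The bulk comparison asked which genes of the imCMs differed with the age of the co-cultured fibroblasts. Of the 8 members, 6 (C3, C4b, Cfb, Serping1, Saa3 and Lcn2) rose in imCM-AF, Serpina3n fell, and Hp was lower without reaching the fold threshold. Calls came from edgeR's quasi-likelihood test over the 14041 genes that passed a filter on low counts, all 8 members among them, and needed both an adjusted p below 0.05 and a log2 fold change beyond 0.58 in size. Of those genes 11.1% were called, 6.15% higher and 4.99% lower in imCM-AF. The members were chosen with earlier results of these data known, so their count is a description and nothing is read from it. The libraries of the 2 groups did not overlap for any of the 8 members, and they did not overlap for 66.0% of all tested genes. Bulk RNA cannot tell fewer cells of a type from less RNA per cell, and the lower fibroblast and endothelial marker sums in imCM-AF stand beside every bulk value that follows. Their part in the results was not tested.

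**Figure D1:**
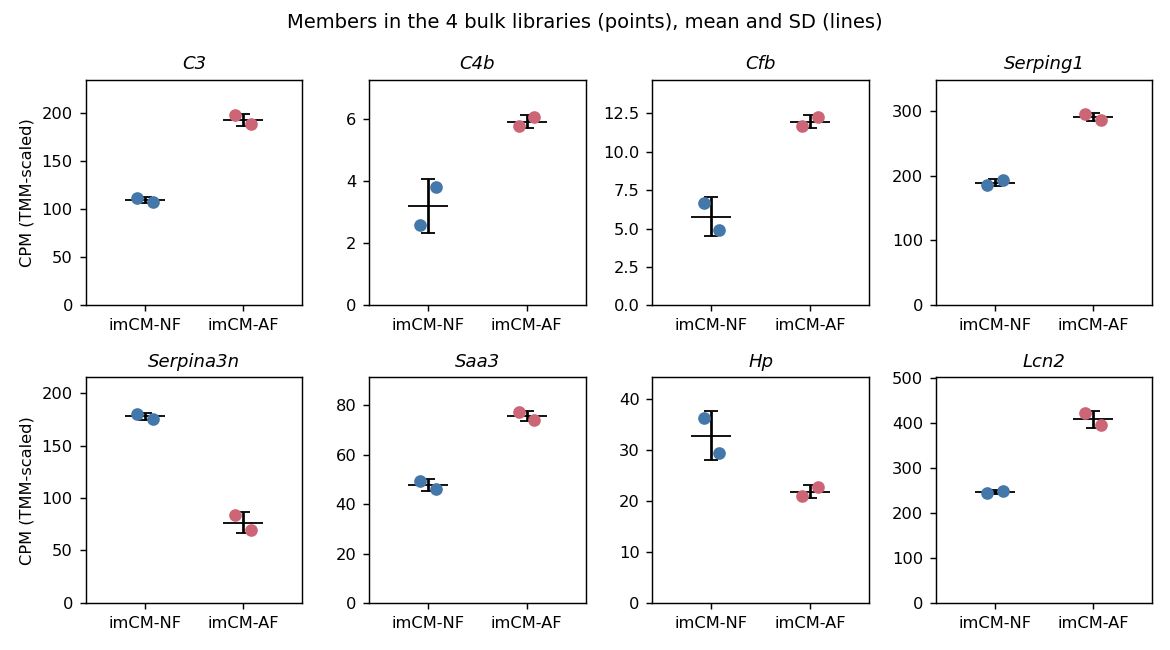
TMM-scaled CPM of each member (y axis, from 0, a scale for each gene) in the 2 imCM-NF and 2 imCM-AF libraries (points), with the mean and SD (lines). Serpina3n and Hp lie lower in imCM-AF, and the other 6 members lie higher.

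Among the complement components, C3 stood at 112 and 107 CPM in imCM-NF and at 197 and 188 CPM in imCM-AF. It rose by a log2 fold change of 0.82 ± 0.10 (SE, n = 2 against 2, adjusted p = 1.18e-05, edgeR), or 1.76-fold between the means. Cfb stood at 6.69 and 4.87 CPM in imCM-NF and at 11.7 and 12.3 CPM in imCM-AF. Its rise of 1.07 ± 0.19 (log2, SE, edgeR adjusted p = 6.88e-04) was the only one among the 6 members that rose to exceed 1. The annotated gene Gm20547 overlaps Cfb on the same strand, and reads from the overlap cannot be told apart.

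C4b was scarce, at 2.56 and 3.80 CPM in imCM-NF and at 5.75 and 6.05 CPM in imCM-AF, which rests on 23 to 72 reads in a library. It rose by 0.86 ± 0.25 (log2, SE, edgeR adjusted p = 0.0169). The call was lost with DESeq2 (adjusted p = 0.0982). It was also lost when imCM-NF replicate 1 was left out (0.63, edgeR adjusted p = 0.0948) or when imCM-AF replicate 2 was (0.83, edgeR adjusted p = 0.0718). C4a, the near-identical neighbour with which C4b can share reads, held 3 to 9 reads in a library.

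Serping1, the inhibitor among the complement members, stood at 186 and 193 CPM in imCM-NF and at 295 and 286 CPM in imCM-AF. It rose by 0.62 ± 0.10 (log2, SE, edgeR adjusted p = 2.90e-04), just past the fold threshold. The inhibitor and the components C3, C4b and Cfb thus all lay higher in both imCM-AF libraries.

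The acute-phase members did not move together. Lcn2 was at 244 and 249 CPM with NFs and at 422 and 395 CPM with AFs, and it rose by 0.73 ± 0.11 (log2, SE, edgeR adjusted p = 1.03e-04). Saa3 was at 49.5 and 46.2 CPM with NFs and at 77.2 and 74.2 CPM with AFs, and it rose by 0.66 ± 0.10 (log2, SE, edgeR adjusted p = 8.75e-05). For both genes the libraries of a group lay close together and the groups lay apart. Serpina3n went the other way, with 180 and 175 CPM in the imCM-NF libraries against 83.7 and 69.2 CPM in the imCM-AF libraries. It fell by 1.22 ± 0.11 (log2, SE, edgeR adjusted p = 3.82e-07), and its level was 2.33-fold lower, the largest fold among the 8 members. Hp was at 36.1 and 29.3 CPM with NFs and at 20.9 and 22.7 CPM with AFs. The log2 difference of -0.58 ± 0.13 (SE, edgeR adjusted p = 0.00285) lay just inside the fold threshold, at -0.5763 before rounding. It passed when imCM-NF replicate 2 (-0.72) or imCM-AF replicate 2 (-0.63) was left out.

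Per kilobase of exon, Lcn2 was the most abundant member in both groups, at 93.1 and 95.1 CPM per kb in imCM-NF and at 161 and 151 CPM per kb in imCM-AF. In imCM-NF, Serpina3n (87.3 and 85.0 CPM per kb) came next, ahead of Serping1 (79.9 and 82.9 CPM per kb). In imCM-AF, Serping1 (127 and 123 CPM per kb) was second and Serpina3n (40.5 and 33.5 CPM per kb) stood level with C3 (38.4 and 36.6 CPM per kb), their ranges overlapping. In imCM-NF, C3, Hp and Saa3 lay between 17.7 and 22.5 CPM per kb, where Hp overlapped both of the others. Cfb, at 1.73 to 4.34 CPM per kb, and C4b, at 0.450 to 1.06 CPM per kb, were the lowest in all 4 libraries.

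The other genes of the pathway, taken from lists chosen by function, moved in both directions. Of 20 complement activation genes, 11 were abundant enough to be tested, and 3 rose and 4 fell. C2, the classical-route protease component next to Cfb in the genome, rose by 1.71 ± 0.29 (log2, SE, edgeR adjusted p = 3.87e-04), Masp2, a lectin-route protease, by 1.12 and C1s1, a protease of the C1 complex, by 0.92. C1qa (-2.29), C1qb (-1.60) and Colec11 (-1.36), which encode recognition molecules, fell and were all under 3 CPM in every library. The calls of C1qa (adjusted p = 0.0980) and C1qb (0.0722) ended with DESeq2. That of C1qa also ended without imCM-AF replicate 1 (edgeR adjusted p = 0.126). That of Colec11 ended in 5 alternatives, with DESeq2 at an adjusted p of 0.235, and none of these 3 genes passed the filter when an imCM-NF library was left out. Masp1, a lectin-route protease like Masp2, also fell and was more abundant than these 3. It stood at 29.3 and 25.9 CPM with NFs and at 17.2 and 19.3 CPM with AFs. Its fall of 0.59 ± 0.13 (log2, SE, edgeR adjusted p = 0.0025) lay just past the fold threshold. The call of Masp1 ended in 4 of 13 alternatives, among them scaling by library totals only and a fold threshold of 1. C1s1 did not reach a fold threshold of 1. The median log2 fold change of the 11 was -0.29, and that of all tested genes was 0.0011. None of the 7 terminal complement genes was abundant enough to be tested. None of the 6 tested regulators and none of the 4 tested receptors was called.

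Among 12 tested other acute-phase genes, Ptx3, a pattern-recognition pentraxin, rose by 0.83 and Steap4, a metalloreductase, fell by 1.08 on the log2 scale. The median of that list was 0.35. Of 28 tested genes of acute-phase signalling, 2 rose and 2 fell. The 2 that rose were Il6, the cytokine (1.07 ± 0.12, log2, SE, edgeR adjusted p = 5.20e-06), and Socs3, a feedback inhibitor of its signalling (0.87). Il6ra, which encodes a receptor chain of interleukin 6, fell by 0.70 and Nfkb2, an NF-kB subunit, by 0.67 on the log2 scale. The call of Il6ra ended in 5 alternatives, among them DESeq2 (adjusted p = 0.116) and the loss of any of 3 libraries. Those of Ptx3, Socs3 and Nfkb2 ended only at a fold threshold of 1, and those of C2, Masp2, Steap4 and Il6 in none of the 13 alternatives. The median of this list was -0.0024.

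The interferon list stood apart by its count. Of 20 tested interferon response genes 18 rose and none fell, with a median of 1.13, led by Oas1a (2.79), Ifit1 (1.99) and Rsad2 (1.83).

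**Figure D2:**
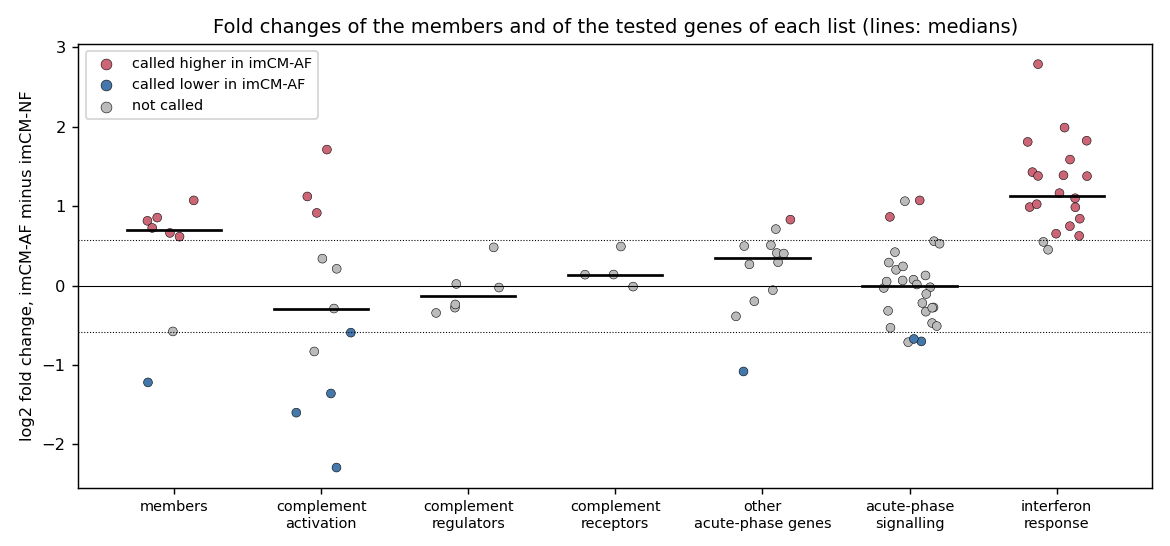
Log2 fold change, imCM-AF minus imCM-NF, of the 8 members and of the tested genes of 6 lists (points, coloured by call), with list medians (thick lines) and the thresholds at ±0.58 (dotted). The 6 members called higher lie between 0.62 and 1.07, and the interferon list has a median of 1.13.

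The single-cell data placed the members by cell. For each well type the UMIs of a gene were summed over cells and divided by all UMIs of those cells, and the exact Poisson 95% intervals cover counting error only. Cells are not replicates and each kind of cell has 1 chip, so no test was made and the well types are given as they are. The 6 members with more than a few UMIs had higher pooled levels in the wells with AFs than in those with NFs, on both chips. Marker sums moved with this. The fibroblast markers summed to 3658 to 4460 CPM in the AFNCM types and to 1880 to 2583 CPM in the NFNCM types, and to 10296 and 14392 CPM in the AF types and 5039 and 6787 CPM in the NF types. The endothelial markers summed to 310 to 388 CPM in the AFNCM types and to 41.2 to 186 CPM in the NFNCM types, and overlapped between AF and NF. Their part in the member levels was not tested. C4b and Cfb had too few UMIs to be compared, at most 10 in any of the 7 pooled groups.

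Of the 6 members at 1 CPM or more, 5 (C3, Serping1, Serpina3n, Hp and Lcn2) had all 3 AFNCM values above all 3 NFNCM values, and 15.4% of all genes at that level did so, while 5.71% lay below. Saa3 overlapped. In the AF wells all 6 lay above both NF wells, where 26.9% of genes lay above and 16.7% below. In the AF0 wells all 6 lay above both NF0 wells, where 29.2% of genes lay above and 23.8% below. Against the 0 wells, 5 of 6 members (all but C3) lay higher in AF than in AF0, where 25.7% of genes lay above and 28.4% below. In the NF wells 4 of 6 (Serping1, Serpina3n, Saa3 and Hp) lay above NF0, where 14.9% of genes lay above and 27.1% below. In the AFNCM wells 5 of 6 (all but Saa3) lay above NCM0, where 21.9% of genes lay above and 13.5% below. Of the 4 members at 1 CPM or more in NFNCM or NCM0 none lay apart, where 12.0% of genes lay above and 14.9% below. The limit of 1 CPM could be met in either group, so a gene that met it only in the group where it was high had little room to overlap. Among the members that lay apart, that held for C3, Hp and Lcn2 in AFNCM against NFNCM and for C3 and Hp in AF0 against NF0. It also held for Hp in NF against NF0 and for C3 and Hp in AFNCM against NCM0. The counts of members are therefore given as a description, and nothing is read from them.

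**Figure D3:**
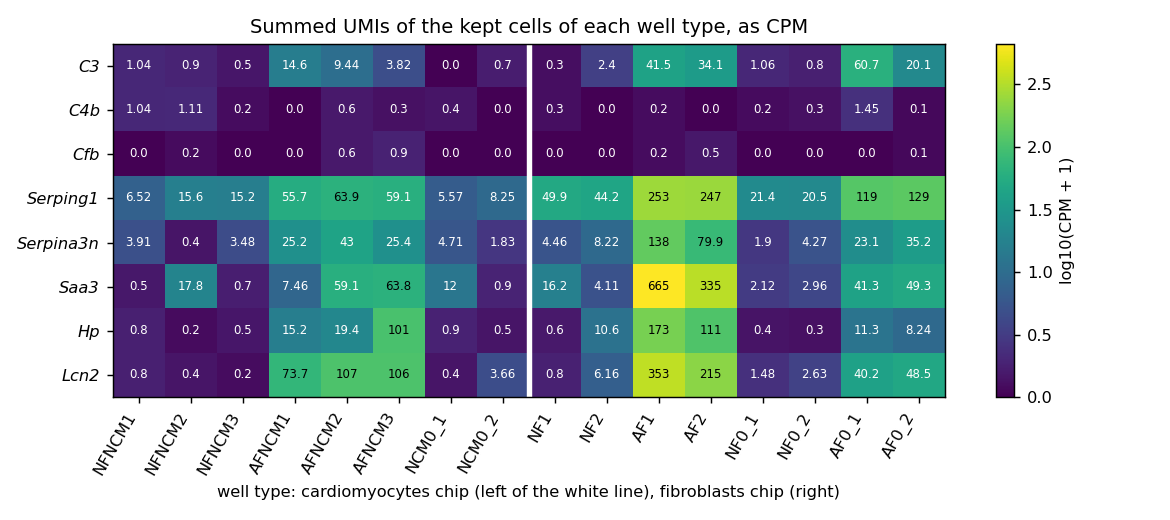
CPM of each member (rows) in the 16 well types (columns), printed in each cell, with colour on a log10(CPM + 1) scale. The AF1 and AF2 columns hold the highest values of Serping1, Serpina3n, Saa3, Hp and Lcn2, and the C4b and Cfb rows stay under 2 CPM.

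Between AFNCM and NFNCM, and between AF and NF, with the UMI limits on wells, Lcn2 had the largest pooled ratio of the 6 members. It was at 73.7, 107 and 106 CPM in AFNCM1, AFNCM2 and AFNCM3 and at 0.782, 0.446 and 0.249 CPM in the 3 NFNCM types. Pooled, that is 1427 UMIs in 509 cells against 6 UMIs in 517 cells, a ratio of 204 (interval 93.6 to 557). The NCM0 wells held 0.429 and 3.66 CPM, so the NFNCM wells did not lie above them. On the fibroblasts chip, Lcn2 was at 353 and 215 CPM in AF1 and AF2, at 0.837 and 6.16 CPM in NF1 and NF2, at 40.2 and 48.5 CPM in the AF0 types and at 1.48 and 2.63 CPM in the NF0 types. At least 1 Lcn2 UMI was found in 59.6% of AF cells (interval 52.7 to 66.3) and in 5.98% of NF cells (3.38 to 9.66). After thinning every cell to 5000 UMIs these shares were 39.1% and 1.38%.

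In the AF wells Saa3 was the member most concentrated in single cells. It was at 665 CPM in AF1 and 335 CPM in AF2, against 16.2 and 4.11 CPM in NF1 and NF2. A single cell held 73.9% of the Saa3 UMIs of AF1 and a single cell held 59.1% of those of AF2. Without these cells the levels were 178 and 141 CPM, still above both NF types. Pooled, AF stood at 510 CPM and NF at 10.8 CPM, and without the UMI limits on wells at 1275 and 9.08 CPM. On the cardiomyocytes chip Saa3 was at 7.46, 59.1 and 63.8 CPM in the AFNCM types and at 0.521, 17.8 and 0.747 CPM in the NFNCM types. The NFNCM2 value rests on 3 cells with 80 UMIs, of which 64 lay in 1 cell. Macrophage-like cells held 80 of the 85 Saa3 UMIs of NFNCM wells, 52 of the 70 of NF wells and 26 of the 32 of NCM0 wells, but 11 of 710 in AFNCM and 0 of 4116 in AF wells. The low levels in the NFNCM and NF wells were thus mostly those of macrophage-like cells. In the NF0 wells macrophage-like cells held 10 of the 37 Saa3 UMIs and fibroblast-like cells 20.

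Hp was at 15.2, 19.4 and 101 CPM in the AFNCM types, with AFNCM3 far above the others, and at 0.782, 0.223 and 0.498 CPM in the NFNCM types. In AFNCM3 a single cell held 238 of the 581 Hp UMIs. In the AF types Hp was at 173 and 111 CPM, or 104 and 87.7 CPM without the highest cell of each, and in the NF types at 0.558 and 10.6 CPM. The AF0 types held 11.3 and 8.24 CPM, so Hp was 15.5-fold (interval 12.6 to 19.4) higher in AF than in AF0 wells.

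Serpina3n was at 25.2, 43.0 and 25.4 CPM in the AFNCM types and at 3.91, 0.446 and 3.48 CPM in the NFNCM types, a pooled ratio of 12.7 (interval 8.83 to 18.9). In the AF types it was at 138 and 79.9 CPM, in the NF types at 4.46 and 8.22 CPM. This order is opposite to the bulk libraries, where Serpina3n fell in imCM-AF, and the order of Hp was opposite as well.

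Serping1 was the member most widely detected in NF wells. It was at 55.7, 63.9 and 59.1 CPM in the AFNCM types and at 6.52, 15.6 and 15.2 CPM in the NFNCM types, a pooled ratio of 4.76 (interval 4.01 to 5.68). The pooled levels were 60.1 and 12.6 CPM, and without the UMI limits on wells 57.9 and 24.4 CPM. In the AF types it was at 253 and 247 CPM and in the NF types at 49.9 and 44.2 CPM. It was also above the 0 wells in both ages, 1.99-fold (1.86 to 2.14) for AF over AF0 and 2.28-fold (1.93 to 2.68) for NF over NF0. In the AF wells 61.0% of cells held a Serping1 UMI, in the NF wells 23.9%.

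C3 was at 14.6, 9.44 and 3.82 CPM in the AFNCM types and at 1.04, 0.891 and 0.498 CPM in the NFNCM types. In the AF types it was at 41.5 and 34.1 CPM, although 1 cell held 57.4% of the AF2 UMIs and the AF2 level was 14.8 CPM without it. The AF0 types held 60.7 and 20.1 CPM, which overlapped the AF types, so C3 was the 1 member of the 6 that did not lie higher in AF than in AF0 wells. In the NF and NF0 types it stayed between 0.279 and 2.40 CPM.

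C4b had 5 UMIs in the AFNCM wells and 10 in the NFNCM wells, a ratio of 0.43 (interval 0.12 to 1.38). Cfb had 8 UMIs in the AFNCM wells and 1 in the NFNCM wells, and 3 in the AF wells and 0 in the NF wells. A difference in either gene was not detectable at this depth.

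Negative control wells bear on the low values. The 5 negative control wells of the fibroblasts chip held 3587 UMIs, among them 3 of Saa3, 1 of Hp and 1 of Lcn2, and those of the cardiomyocytes chip held 1465 UMIs with none of a member. Member UMIs outside cells were thus present on the fibroblasts chip, and their part in low counts was not tested.

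Cell classes were set by clustering without the members and without the listed genes, and clusters were named from marker genes alone. Of the 509 AFNCM cells 209 were cardiomyocyte-like, 93 fibroblast-like, 55 endothelial-like and 144 unnamed, and of the 517 NFNCM cells 348 were cardiomyocyte-like, 76 fibroblast-like and 74 unnamed. The cardiomyocyte-like cells of AFNCM lay mostly in cluster 6 (122 cells) and those of NFNCM in clusters 1 and 5 (135 and 147 cells). The fibroblast-like cells of AF and AFNCM lay mostly in cluster 3 (150 and 88 cells), those of NF and NFNCM in clusters 4 and 9. No doublet caller was run. The rule that named the clusters was the third one run, kept after its output was seen, so the class values depend on a choice that the well-type values do not. The first rule named the same cardiomyocyte-like clusters but no fibroblast cluster of the NF or NFNCM wells, and the second named no fibroblast cluster at all.

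**Figure D4:**
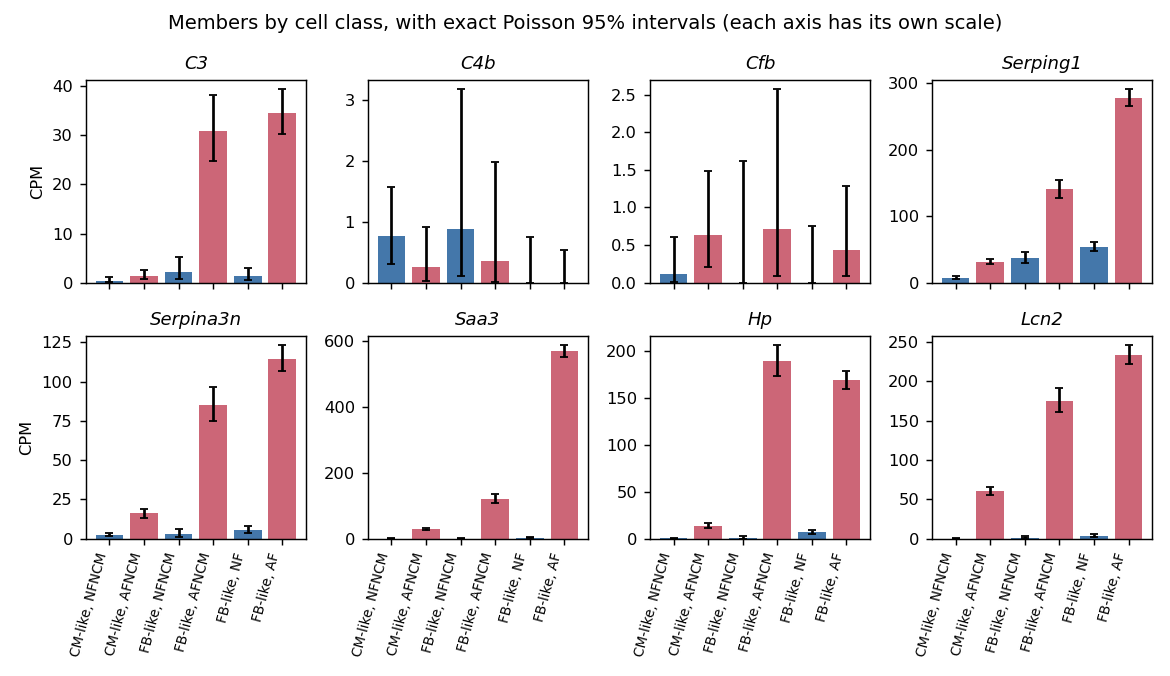
CPM of each member (y axis, from 0, a scale for each gene) in cardiomyocyte-like (CM-like) and fibroblast-like (FB-like) cells of the co-culture wells, with exact Poisson 95% intervals. Red bars are wells with AFs and blue bars wells with NFs, and for the 6 members other than C4b and Cfb each red bar stands above the blue bar of the same class and chip.

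Within the AFNCM wells the 6 members other than C4b and Cfb were higher in fibroblast-like than in cardiomyocyte-like cells, by amounts that differed between genes. C4b (1 against 2 UMIs) and Cfb (2 against 5 UMIs) were too scarce to compare. C3 was at 31.0 CPM in fibroblast-like and 1.397 CPM in cardiomyocyte-like cells, a ratio of 22.2 (interval 11.8 to 46.0). Hp followed at 189 and 13.5 CPM, a ratio of 14.1 (11.4 to 17.5), but 1 cell held 44.7% of the Hp UMIs of the fibroblast-like cells, which stood at 106 CPM without it. The ratio was 5.27 (4.23 to 6.59) for Serpina3n, 4.52 (3.84 to 5.32) for Serping1 and 4.15 (3.50 to 4.93) for Saa3. For Saa3, 1 cell held 52.8% of the fibroblast-like UMIs (57.9 CPM without it) and 1 cell 54.8% of the cardiomyocyte-like UMIs (13.4 CPM without it). It was smallest for Lcn2, at 175 and 60.3 CPM, a ratio of 2.91 (2.56 to 3.31).

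Cardiomyocyte-like cells of AFNCM also held more of these genes than those of NFNCM. Lcn2 was at 60.3 CPM (interval 55.0 to 66.0) in the former and at 0.109 CPM (0.0028 to 0.606) in the latter, and at 2.94 CPM in those of NCM0. A Lcn2 UMI was found in 57 of 209 such cells (27.3%, interval 21.4 to 33.8) in AFNCM, in 1 of 348 (0.287%) in NFNCM and in 12 of 225 (5.33%) in NCM0, at median depths of 33612, 23061 and 16508 UMIs. Serping1 was at 31.1 against 7.40 CPM, Saa3 at 29.2 (13.4 without the highest cell) against 0.435 CPM, Serpina3n at 16.1 against 2.503 CPM and Hp at 13.5 against 0.435 CPM. C3 was at 1.397 CPM (0.697 to 2.499) against 0.435 CPM (0.119 to 1.11), and these intervals overlap. Under the second naming rule, which left cluster 7 unnamed, Saa3 was at 13.9 against 0.260 CPM, Serping1 at 18.8 against 2.21 CPM and Lcn2 at 48.4 CPM against 0 UMIs, so the levels moved while the order of the wells did not.

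These levels were not even across the 5 cardiomyocyte-like clusters, of which clusters 1, 5, 6, 7 and 11 held 24, 17, 122, 29 and 17 AFNCM cells. In that order Lcn2 was at 42.7, 18.9, 41.1, 122 and 104 CPM, Serping1 at 7.63, 9.47, 13.8, 95.5 and 60.8 CPM, and Saa3 at 3.05, 0, 12.8, 109 and 31.7 CPM. Clusters 7 and 11 were the highest in these 3 genes. Cluster 7 held 138 of the 230 Saa3 UMIs of these cells. The cell that held most of the cardiomyocyte-like Saa3 UMIs can only lie there. The Saa3 level and rank of cluster 7 thus rest largely on that cell. Serpina3n had another order, at 51.9, 0, 11.3, 19.7 and 13.9 CPM, highest in cluster 1. The mean level of fibroblast markers, relative to the cluster where each is highest and taken over all cells of a cluster, was 0.030, 0.032, 0.039, 0.22 and 0.11. The values of cluster 5 rest on 0 to 2 UMIs of a gene. The sort on dyes came before the single-cell wells were filled, and the part of fibroblast RNA in the cardiomyocyte-like values was not tested.

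Fibroblast-like cells of the fibroblasts chip differed between AF and NF wells in each of the 6 members. Saa3 was at 568 CPM in AF (263 CPM without 1 cell that held 54.3% of its UMIs) and 2.23 CPM in NF wells, Lcn2 at 234 and 3.65 CPM, and Hp at 169 and 6.70 CPM. Serping1 was at 278 and 53.6 CPM, Serpina3n at 115 and 5.48 CPM, and C3 at 34.6 and 1.42 CPM. No interval of an AF level reached that of the NF level. The first naming rule gave no fibroblast-like NF cells for this comparison and the second none of either kind. Endothelial-like cells of AF wells, only 15, held Lcn2 at 877 CPM (808 to 951), or 715 CPM without the highest cell, with an Lcn2 UMI in 12 of them, but Hp at 1.48 CPM. In the mesothelial-like cells of AF0, Serping1 was at 122 CPM, Lcn2 at 46.5 CPM, Saa3 at 45.9 CPM and C3 at 34.3 CPM.

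The UMIs of each gene sat in few cells. In AF wells the highest 5% of cells held 92.2% of the Saa3 UMIs, 82.1% of the Hp UMIs and 79.8% of the C3 UMIs, but 52.1% of the Lcn2, 51.2% of the Serpina3n and 44.0% of the Serping1 UMIs. Lcn2, Serping1 and Serpina3n were thus spread over more cells. A Saa3 UMI was nevertheless found in 36.6% of AF cells.

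**Figure D5:**
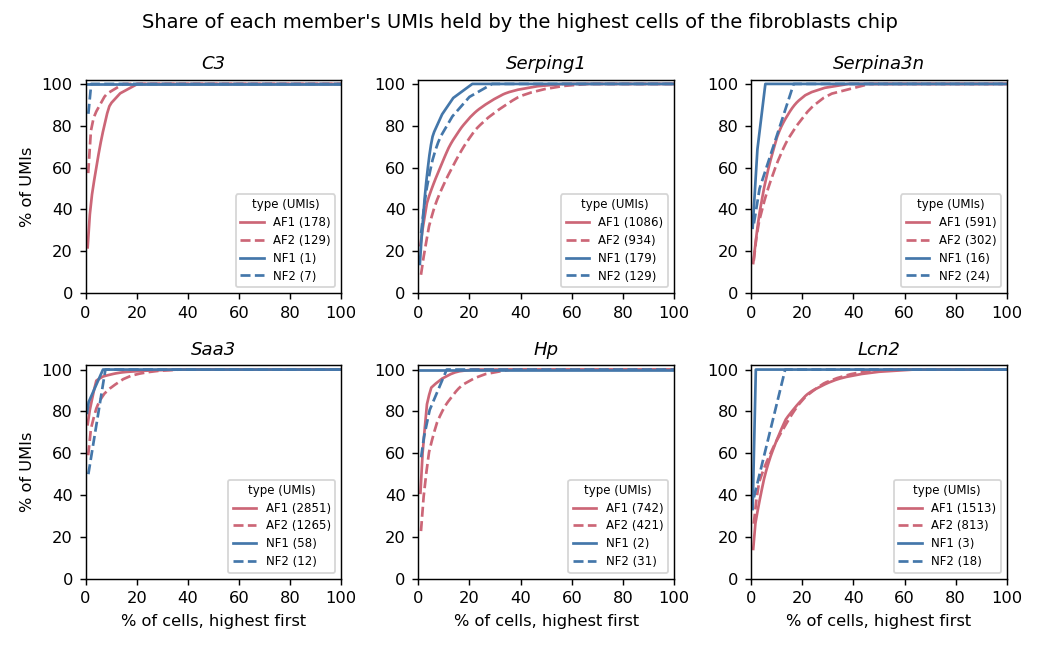
Cumulative share of UMIs (y axis, percent) over cells ranked from the highest (x axis, percent of cells) in AF1, AF2, NF1 and NF2, for the 6 members other than C4b and Cfb, with UMI totals in the legends. Among the AF curves that of Saa3 in AF1 starts highest, where 1 cell held 73.9% of its UMIs, and those of Serping1 and Lcn2 rise more slowly.

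Between members, correlations over single cells differed by well type. Over the 15 pairs of the 6 members, Pearson's r ran from -0.03 to 0.30 in AF1 (118 cells) and from -0.05 to 0.34 in AF2 (95 cells), from -0.07 to 0.00 in NF1 (161 cells) and from -0.06 to 0.45 in NF2 (90 cells). The cells of a type share a library, and these values are descriptions of sparse counts. No gene seen in at least 10% of the 464 co-culture cells of the fibroblasts chip reached a mean r of 0.3 over AF1, AF2, NF1 and NF2 with C3, Serping1, Serpina3n, Saa3 or Lcn2. For Hp, only Ifit1 did (0.30), which rests on NF2 (0.84), with 0.09 in AF1 and -0.03 in AF2. That mean is over those 3 types, since r could not be computed in NF1. C4b and Cfb were seen in 0.431% and 0.647% of these cells, and no likeness is given for them.

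Listed pathway genes in the AF and NF wells went in both directions as well. Of 10 complement activation genes at 1 CPM or more, 3 lay higher in both AF types than in both NF types, 3 lay lower and 4 overlapped. C1qb, which macrophages make, was at 0.248 CPM in AF and 8.92 CPM in NF wells, and C1s1 at 20.6 and 3.07 CPM. Of the other complement activation genes that rose in bulk, C2 was at 1.36 and 0.615 CPM with overlapping types, and Masp2 was at 0 CPM in both. In the AFNCM and NFNCM wells C2 was at 0.557 and 0.486 CPM, Masp2 at 0.0696 and 0 CPM and C1s1 at 4.17 and 0 CPM. Of 5 complement receptors none lay higher and 2 lower, C3ar1 (0.496 and 4.46 CPM in AF and NF wells) and Itgam (10.2 and 14.9 CPM), named after their values were seen. Of 9 complement regulators 4 lay higher and none lower, and of 11 other acute-phase genes 8 lay higher, among them Ptx3 (206 against 91.2 CPM), and 2 lower. Of 26 signalling genes 14 lay higher, among them Il6 (115 against 5.84 CPM), and 3 lower. Of the 20 interferon response genes 19 lay higher, with Ifit1 at 133 against 4.15 CPM. These shares stand beside the 26.9% of all genes above and 16.7% below in the same wells. Here too a gene could meet the limit of 1 CPM only in the group where it was high. That held for Itih4, Hpx, Lbp, Steap4, C4bp, Oas1a, Rsad2 and Usp18 in AF wells. It also held for C1qa, C1qb, C1qc, C3ar1, Il1a and Il1b in NF wells. The list counts are therefore a description, and nothing is read from them.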

How the data were processed

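Bulk reads were aligned to mm10 with the R package of Subread and counted per RefSeq gene with featureCounts by the authors, and deposited as raw counts of 4 libraries. Single-cell reads were aligned by the authors with STAR (2.5.2b, per the submitters' processing notes) and assigned to Ensembl genes with featureCounts. The single-cell tables were deposited by the authors as UMI counts per well and gene, with other columns per the file headers naming each well's type. A deposited workbook of fold changes was not used here.

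Counts were scaled by TMM and tested with edgeR 4.0.16 (R 4.3.3), keeping genes over 1 CPM in at least 2 libraries, with Benjamini-Hochberg adjustment. DESeq2 1.42.0 and limma 3.58.1 were alternatives. On simulated data edgeR recovered 189 of 200 genes changed by 1.5 on the log2 scale, with 2 false calls among 14041 genes. The changes of the called members were all smaller in size than this, and recovery at their sizes was not simulated. Bulk identifiers without a symbol held 3.52% of counts. Wells with at least 500 genes, over 50% aligned pairs and UMIs within 2 SD of the mean were kept, without 34 mitochondrial genes, and the 0 wells had limits of their own. The chips share 269 well barcodes. Intervals are at 95% and cover counting error only. Clusters came from scanpy 1.11.5 (10 components, 30 neighbours, resolution 1), without members and listed genes.

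The members, lists and rules were chosen with earlier results of these data known, and several choices were made after seeing output. The 3 rules for naming clusters were run in turn and each judged by which clusters it left unnamed, and the last was kept. The first asked for markers over 2-fold above other cells and named 9 of 14 clusters. The second compared marker levels with their highest cluster, asked for 2 times the level of the next class and named 5. The third, kept, asked for 1.5 times, let smooth muscle and neutrophil markers neither name nor compete, and named 12. The UMI limits were compared with 12 definitions in all, which kept 1488 to 1497 co-culture wells, and the first one written (1490) was used. The limit of 1 CPM for counting members across well types, the use of the 0 wells and the omission of likeness for C4b and Cfb were also settled after seeing the data. Named genes were the members and, from each list, up to 3 called genes in each direction with the largest fold change. Masp1 and some genes of the single-cell lists were named beyond this rule, after their values were seen.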

Additional observations from a re-analysis of the deposited data

Results flagged for a closer look

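Serpina3n and Hp lay in opposite order in the bulk and the single-cell data. In bulk, Serpina3n had a log2 fold change of -1.22 and Hp of -0.58 in imCM-AF against imCM-NF, with both imCM-AF libraries below both imCM-NF libraries. In single cells, all 3 AFNCM types lay above all 3 NFNCM types, with pooled ratios of 12.7 for Serpina3n and 105 for Hp. The difference between the data sets was not tested. Fibroblast markers differed in the same opposite way, with bulk sums of 21406 and 23711 CPM for co-culture with NFs against 15873 and 12758 CPM with AFs, but 1880 to 2583 CPM in the NFNCM and 3658 to 4460 CPM in the AFNCM types, and their part was not tested. In AFNCM3 a single cell held 238 of the 581 Hp UMIs. C3, Serping1 and Lcn2 were higher with AFs in both. The sizes differed for all 3. In bulk the mean level of Lcn2 was 247 CPM in imCM-NF and 409 CPM in imCM-AF. The pooled wells held 0.486 CPM of Lcn2 in NFNCM and 99.3 CPM in AFNCM. C3 was 1.76-fold higher with AFs in bulk and 10.3-fold higher in the pooled wells, and Serping1 1.53-fold and 4.76-fold.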

How the results depend on the processing

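Among all tested genes, 864 were called higher and 700 lower. With a fold threshold of 1 the counts were 393 and 172, and by adjusted p alone 1759 and 2030. Leaving out 1 library gave 498 to 1074 higher and 381 to 855 lower, the fewest (498 and 381) on leaving out imCM-NF replicate 2, followed by imCM-AF replicate 2 (559 and 429). Of the members, 6 were higher and 1 lower, and only 1 was higher at the fold threshold of 1. Hp made it 2 lower with no filter on low counts, by adjusted p alone and under the crossed pairing. Leaving out 1 library gave 5 to 6 members higher and 1 to 2 lower. Of the complement and acute-phase lists together, 6 genes were called higher and 7 lower. That became 3 and 4 at a fold threshold of 1, 13 and 14 by adjusted p alone, 3 lower with DESeq2, and 6 to 8 higher and 3 to 5 lower on leaving out 1 library. The causes were not tested.

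The replicate block gave 798 and 632 calls, with 6 members higher and 1 lower. Deviations of the libraries numbered 1 correlated at -0.18. That gives no sign of a pairing by number, and it cannot tell whether the libraries were paired otherwise. The crossed pairing, added after seeing the data, gave 936 and 732 calls. Libraries of a group differed beyond sampling noise (chi-square per degree of freedom 9.03 and 9.02).

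In the pooled single-cell groups 13 of 56 levels moved outside their counting interval without the UMI limits and 16 as a mean over cells, and 43 of 56 shares moved with thinning. C3, Serping1, Serpina3n, Saa3, Hp and Lcn2 stayed higher with AFs in each of these, while C4b in AF against NF wells went from lower to higher without the UMI limits (4.36 against 0.259 CPM). Of 80 levels by class, 11 moved at resolution 0.5, 8 at 1.5 and 5 when members and listed genes entered the clustering. Under the second naming rule, added with the first after seeing the data, 11 of the 24 levels it could give moved, and under the first none of 48. The first rule named the same cardiomyocyte-like clusters as the kept rule, so the cardiomyocyte-like levels among these could not move. Depth limits C4b and Cfb in single cells.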
